A study of Mus musculus with 2 samples.

Results

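The mitochondrial ribosomal protein genes were taken as every protein-coding gene of the GENCODE mouse annotation of the GRCm38 (mm10) genome whose symbol is Mrpl or Mrps followed by digits. The rule gave 78 of 21938 coding genes, 49 with an Mrpl symbol, named for the large subunit, and 29 with an Mrps symbol, named for the small subunit. The symbol alone decided, and a symbol such as Mrps36 does not by itself make the protein part of the ribosome. They were followed in DNase-seq of whole cerebellum from male B6CASTF1/J mice, the F1 cross of C57BL/6J with CAST/EiJ, aged 8 to 10 months. There was 1 group, without treatment or any altered gene named in the labels, and it held 2 libraries, called replicate 1 and replicate 2 as in the labels. Each library came from a pool of 2 cerebellum biosamples. The labels name the same donor record for both. Whether any animal gave tissue to both pools is not stated, and the libraries may therefore differ by less than separate animals would.

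Mitochondria keep a small genome of their own that encodes core subunits of the respiratory chain, and these subunits are made on the mitochondrial ribosome. Its RNAs come from mitochondrial DNA, while all of its proteins are encoded in the nucleus, made in the cytosol and imported. Many of them descend from bacterial ribosomal proteins, and others were added to the ribosome in the line that led to animals. Neurons depend heavily on respiration, and the genes are active in nearly all tissues.

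DNase I cuts DNA that is not wrapped in nucleosomes, and a peak marks a stretch that is cut often. A footprint is a short protected stretch inside it, as a bound protein leaves. A TSS peak of a gene is any peak that reaches within 1 kb of 1 of its annotated transcript starts, and the gene's signal is the authors' value for the strongest such peak. The reference start is that of the gene's main annotated protein-coding transcript. The authors' stricter peak list holds 61776 peaks in replicate 1 and 71141 in replicate 2, and their footprint lists hold 314116 and 320832. Accessibility in a smaller share of cells and weaker accessibility in every cell cannot be told apart in whole tissue. Marker lists gave a TSS peak in both libraries at 10 of 10 granule cell genes, 5 of 8 Purkinje cell genes, 1 of 6 oligodendrocyte genes, 2 of 5 astrocyte genes, 0 of 5 microglial genes and 1 of 6 genes of other organs. Of coding genes outside the Mrpl and Mrps set, 58.2% had one in replicate 1 and 57.0% in replicate 2. Pcp2, Car8 and Gad1, defining genes of Purkinje cells or inhibitory neurons, were among those without a peak. From the same Purkinje list Itpr1 (8.28 and 7.24), Lhx1 (5.95 and 4.44), Rora, Pcp4 and Calb1 had a peak. Since both libraries belong to 1 group, no test between conditions was possible, and values of other genes are given as description.

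All 78 members had a TSS peak in both libraries, in the stricter list and in the longer list alike. Of the other 21860 coding genes, 58.2% had one in the stricter list of replicate 1, and 57.0% in the other library's, and 63.3% and 62.0% in the longer lists. A CpG-rich start, here a CpG ratio of at least 0.6 of observed over expected with at least 50% GC over the 500 bases on each side, is common among genes active in all tissues. Of the members 66 of 78 (84.6%) had one. Among other coding genes with such a start, 90.9% were open in this sense in replicate 1 and 88.9% in replicate 2. The share of 78 in 78 stands closer to that of CpG-rich genes than to that of all genes. Within 1 kb of the reference start a peak was found at all 78 members in both libraries.

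The members were spread over 17 chromosomes, with 11 on chromosome 11, 8 on chromosome 17 and 7 on chromosome 6. The median GC content around their starts was 55.8% and the median CpG ratio 0.727. All other coding genes had medians of 55.3% and 0.569, and those picked for a CpG-rich start 61.8% and 0.787.

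The median signal of the members was 5.09 in replicate 1 and 3.57 in replicate 2 (mean 4.33 ± 1.07 SD, n = 2 libraries). Other coding genes with a TSS peak had medians of 4.83 and 3.38, and those with a CpG-rich start 5.65 and 3.89. The signal of a typical member was thus close to, and slightly below, that of an open CpG-rich promoter. Over all other CpG-rich coding genes, with 0 where there was no peak, the medians were 5.17 and 3.45. Above these lay 38 members in replicate 1 and 42 in replicate 2. Among all coding genes the median member stood at percentile 72.3 and 72.8, and 14 and 15 members were in the top 10%. The 76 genes of cytosolic ribosomal proteins, which build the ribosome outside mitochondria, had a higher median, 7.47 and 5.16, and all 76 had a TSS peak in both libraries.

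Signal varied widely among the members. It ran from 1.91 to 17.1 in replicate 1, with quartiles at 3.75 and 8.61, and from 0.841 to 11.4 in replicate 2, with quartiles at 2.35 and 5.72. Other coding genes with a TSS peak had quartiles at 2.57 and 7.84 in replicate 1 and at 1.80 and 5.70 in replicate 2. Replicate 1 gave the higher value in 75 of the 78 members. The shift was shared by the genome, since the median log2 ratio of replicate 1 to replicate 2 was 0.55 over all coding genes with a TSS peak in both and 0.64 over the members. The order of the members was much the same in both libraries (Pearson r of log2 signal 0.94, Spearman rho 0.94, across 78 genes that share their library, given as a description).

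**Figure D1:**
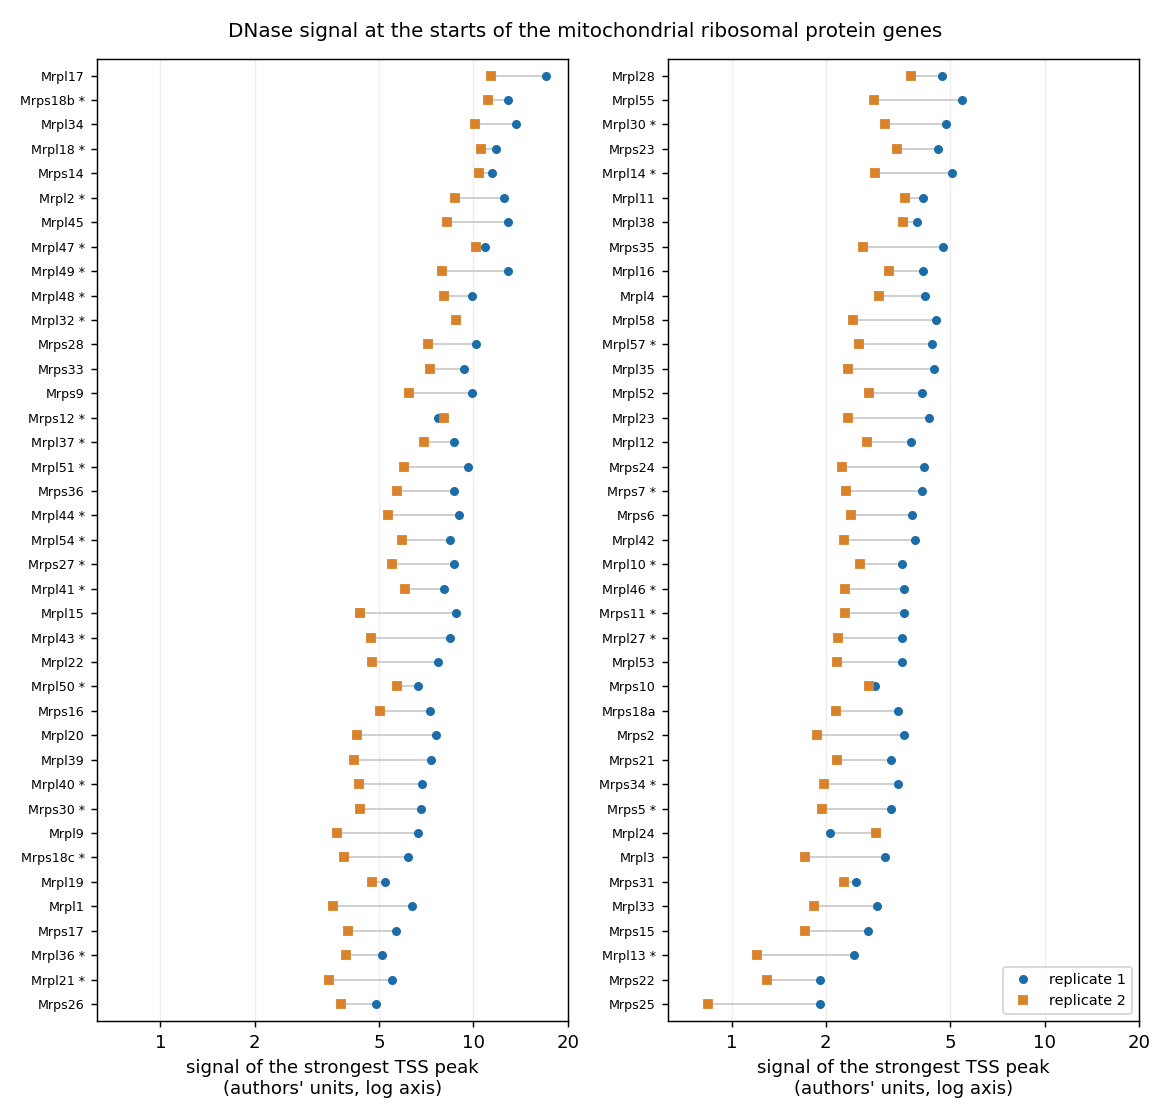
Signal of the strongest TSS peak of each of the 78 members, on a log axis in the authors' units, with replicate 1 as circles and replicate 2 as squares, joined by a line, ordered by their mean; a star marks a gene with a divergent coding neighbour. Values fall from 17.1 and 11.4 at Mrpl17 to 1.91 and 0.841 at Mrps25, and replicate 1 is higher at 75 genes.

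The highest signal was at Mrpl17, for a large-subunit protein at the exit of the peptide tunnel in bacterial ribosomes, with 17.1 in replicate 1 and 11.4 in replicate 2. Mrps18b, 1 of the genes for the versions of protein S18, followed with 12.9 and 11.1, and Mrpl34, for a small basic protein of the large subunit, with 13.7 and 10.1. These genes lay between percentile 96.9 and 99.5 of all coding genes in both libraries. Mrpl18, whose bacterial counterpart binds 5S RNA, had 11.8 and 10.6. Mrps14, for a protein of the head of the small subunit, had 11.5 and 10.4. Mrpl2, for a protein close to the peptidyl transferase centre, had 12.5 and 8.72. All of these genes make proteins with a bacterial counterpart, as do 48 of the 78 members.

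Mrps25, for a mitochondrial addition to the small subunit, had the lowest signal, 1.91 in replicate 1 and 0.841 in replicate 2, or percentile 52.1 and 48.5 of all coding genes. Mrps22, another addition to the small subunit, had 1.91 and 1.30. Mrpl13, whose bacterial counterpart acts early in large-subunit assembly, had 2.46 and 1.21. Each of these genes was low in both libraries, and still above or near the middle of the coding genes, of which many have no peak. Next came Mrps15 with 2.73 and 1.71, Mrpl33 with 2.92 and 1.83, and Mrps31 with 2.49 and 2.28.

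The 100 bases before the reference start are shown for members without a divergent coding neighbour among the highest and the lowest, to show how much of each is footprinted. They are from GRCm38, 5′ to 3′ on the strand of the gene, with bases inside a footprint of both libraries in capitals. Mrpl17 lies at chr7:105811100-105811199 on the minus strand, Mrpl34 at chr8:71464859-71464958 and Mrps14 at chr1:160195115-160195214 on the plus strand, and Mrps25 at chr6:92184034-92184133 and Mrps22 at chr9:98601661-98601760 on the minus strand.
Mrpl17: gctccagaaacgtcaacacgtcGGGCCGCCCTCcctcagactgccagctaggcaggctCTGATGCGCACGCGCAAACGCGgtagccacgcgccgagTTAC
Mrpl34: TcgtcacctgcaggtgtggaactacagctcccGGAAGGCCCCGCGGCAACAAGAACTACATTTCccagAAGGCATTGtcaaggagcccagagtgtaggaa
Mrps14: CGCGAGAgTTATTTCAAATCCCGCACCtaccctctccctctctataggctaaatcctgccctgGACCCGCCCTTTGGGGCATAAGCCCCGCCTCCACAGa
Mrps25: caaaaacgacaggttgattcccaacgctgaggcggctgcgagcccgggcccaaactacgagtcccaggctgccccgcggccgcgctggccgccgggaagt
Mrps22: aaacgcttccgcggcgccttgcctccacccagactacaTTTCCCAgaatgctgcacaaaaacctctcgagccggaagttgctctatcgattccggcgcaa
In both libraries footprints covered 37.0% of these bases at Mrpl17, 42.0% at Mrpl34 and 62.0% at Mrps14, but 7% at Mrps22 and none at Mrps25. Mrps15, the next lowest such member and not shown, had 16.0%. These are picked extremes. Across all members the number of footprints in the TSS peaks had a Spearman rho with signal of 0.34 in replicate 1 and 0.14 in replicate 2, given as a description. The motif matches named next are examples and do not set high genes against low ones. Mrpl17 also had an ETS match, at -222 bp from its start, outside any footprint. Mrps22 also had a match to the motif of ZNF143 and THAP11, at -62.5 bp, that overlapped a footprint in both libraries. The longer run of capitals at Mrpl17 holds GCGCACGCGC, a match to the motif of NRF1, a factor known for activating nuclear genes of mitochondrial proteins. Mrps22 holds CCGGAAG, a match to the motif of ETS factors, outside any footprint.

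The genes named for the large and for the small subunit overlapped in signal. The median signal was 5.44 and 3.67 for Mrpl genes and 4.55 and 2.75 for Mrps genes, in replicates 1 and 2. Genes of proteins with a bacterial counterpart had medians of 4.95 and 3.33, and the other 30 members, classed as mitochondrial additions, 6.73 and 4.24. These gaps are small against the range within each class.

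The median width of the strongest TSS peak was 240 bp in replicate 1 and 260 bp in replicate 2 (mean 250 ± 14.1 bp SD, n = 2 libraries), the same medians as for other coding genes. Mrps6, whose protein counterpart lies on the platform of the small subunit, had the widest, 580 and 680 bp. It was followed by Mrpl14 with 360 and 660 bp, Mrpl13 with 500 and 500 bp and Mrps7 with 440 and 500 bp. Wide peaks were not all strong, and Mrpl13 stood among the lowest by signal. Across the 78 members the Spearman correlation of signal with width was 0.12 in replicate 1 and -0.08 in replicate 2, given as a description.

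The narrowest on average were Mrpl11 (120 and 220 bp), Mrps33 (120 and 220 bp), Mrps36 (200 and 140 bp) and Mrpl21 (180 and 180 bp). Width repeated less well than signal, with a Spearman rho of 0.50 between the libraries. The strongest peak of Mrpl10 measured 100 bp in replicate 1 and 520 bp in replicate 2, and that of Mrpl34 460 and 60 bp.

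The accessible stretch at the members was short. Most had a lone TSS peak, 51 of 78 in replicate 1 and 44 in replicate 2, with 36 of them in both. On average there were 1.45 and 1.69 TSS peaks per member, against 2.16 and 2.27 at other CpG-rich coding genes with a peak. All TSS peaks of a member together covered a median of 280 bp in replicate 1 and 328 bp in replicate 2. Other CpG-rich genes with a peak had 455 and 476 bp, and the cytosolic ribosomal protein genes 280 and 280 bp. Members have a median of 4 annotated starts and other coding genes 3.

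The authors' false discovery rates, which are not independent of the peak lists, since every stricter peak holds a base under 0.001, also give the width of the cut region. In their table of rates for local cutting, a median of 836 and 917 bases within 1 kb of the reference start of a member had a rate under 0.05. Other CpG-rich genes with a TSS peak in both libraries had medians of 1216 and 1337 bases. Under the stricter rate of 0.001 the members had 684 and 692 bases, and those genes 987 and 1011.

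The exception in number of peaks was Mrpl48, with 6 TSS peaks in replicate 1 and 8 in replicate 2. Transcripts of Mrpl48 are annotated from its own start and from the start of the divergent gene Rab6a, for a GTPase of Golgi traffic, more than 24 kb away. The strongest peak lay at the Rab6a start, with 9.87 and 8.07, while that at the reference start of Mrpl48 had 4.18 and 2.16. Mrpl36 was similar: its strongest peak, 5.12 and 3.92, was at the start of Ndufs6, for a subunit of respiratory complex I, and that at its own reference start had 4.45 and 2.60. At the other 76 members the strongest TSS peak lay within 1 kb of the reference start.

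The peaks were centred on the start. The middle of the strongest peak was within 100 bp of the reference start at 59 members in replicate 1 and 60 in replicate 2 (75.6% and 76.9%), against 50.8% and 49.4% of other coding genes with a TSS peak. A peak covered the reference start itself at 71 and 69 members (91.0% and 88.5%), against 69.1% and 67.5%. At other CpG-rich coding genes with a TSS peak in both libraries the share covered was nearer, 78.5% and 75.2%. At Mrpl13, Mrpl23, Mrpl4, Mrpl40 and Mrpl47 the reference start was covered in neither library.

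**Figure D2:**
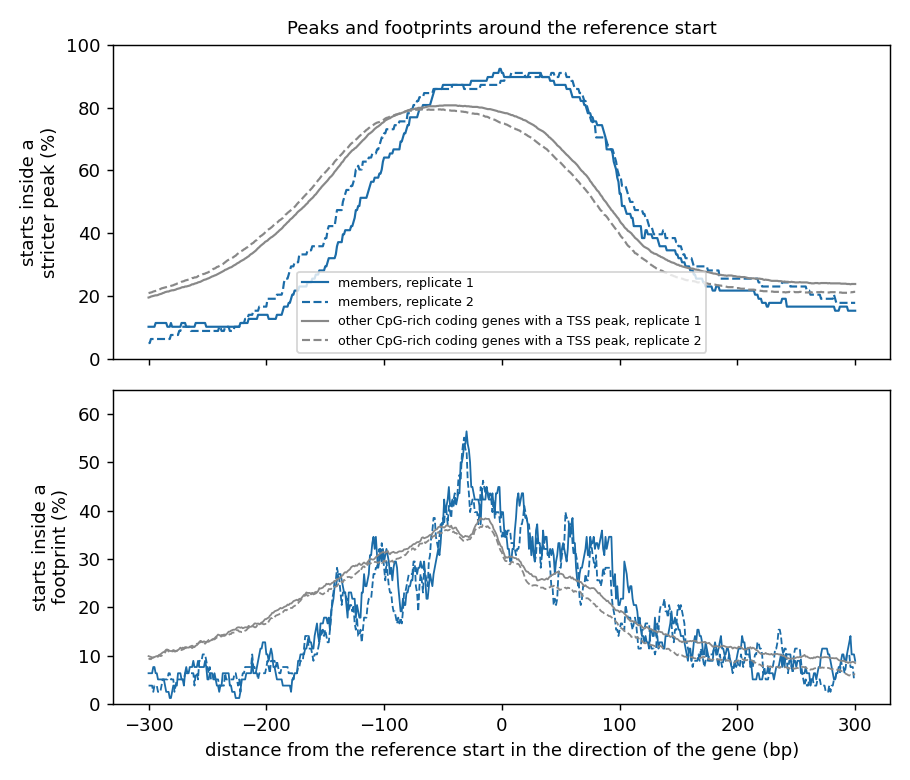
Share of reference starts that lie inside a stricter peak (upper panel) and inside a footprint (lower panel) at each distance from the start, in bp along the gene, for the 78 members and for 8841 other CpG-rich coding genes with a TSS peak in both libraries; solid lines are replicate 1 and dashed lines replicate 2. The members' peaks reach 92.3% and 91.0%, and their footprints reach 56.4% and 55.1% about 30 bp before the start.

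Footprints were found in the TSS peaks of every member. There were 524 in replicate 1 and 554 in replicate 2, of which 401 and 416 (76.5% and 75.1%) overlapped a footprint of the other library, against 65.6% and 69.9% at other coding genes. The median member had 6 footprints in each library. Per 100 bp of TSS peak the median was 2.05 and 1.82 footprints, against 1.70 and 1.61 at other CpG-rich coding genes. The cytosolic ribosomal protein genes, whose TSS peaks also covered little sequence, had 2.08 and 1.92. Over the 300 bases from 250 before to 50 after the reference start there was no such gap. Footprints held a mean of 24.2% and 23.0% of these bases at members, and 24.1% and 23.0% at other CpG-rich coding genes, with or without a peak. A footprint shared by both libraries was found at 77 of 78 members (98.7%) in each library, against 55.0% and 54.6% of all other coding genes, where genes without a peak count as lacking one. Among other coding genes with a CpG-rich start it was 87.8% and 87.1%. The member without one was Mrps25, with 1 footprint in each library at different places.

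Footprints were most frequent close to the start. At the members the share of starts inside a footprint was highest 30 bp before the start in replicate 1 (56.4%) and 32 bp before it in replicate 2 (55.1%). At other CpG-rich genes with a peak it was highest 18 and 16 bp before the start, at 38.5% and 37.1%. These are maxima over single positions, from 78 members and from 8841 other genes. With fewer genes a maximum tends to be higher and its place less certain, so the maxima are not a like comparison. Further out, more than 100 and up to 300 bp before the start, the mean share was 11.4% and 10.6% at members and 19% and 18.3% at the others. In the last 100 bp before the start it was alike, 35.5% and 34.5% against 34.8% and 33.7%.

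The most shared footprints were in the TSS peaks of Mrpl48, with 20 and 24, over its several peaks. Mrps18b had 14 and 10, Mrpl14 had 10 and 13, and Mrps6 had 12 and 10. Mrpl46, Mrps11 and Mrps21 had 1 each in both libraries. The number of all footprints, shared or not, followed the length of accessible sequence, with a Spearman rho of 0.65 in replicate 1 and 0.76 in replicate 2 across the 78 members, given as a description. The number of footprints per member had a rho of 0.50 between the libraries, and a sequence preference of DNase I in footprint calls was not tested.

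Many members start head to head with another gene. A divergent coding neighbour was a coding gene on the other strand with a start at most 1 kb upstream of a start of the member, or overlapping it by at most 200 bp. By this rule 32 of 78 members (41.0%) had such a neighbour, against 11.2% of other coding genes and 19% of other coding genes with a CpG-rich start. The share was 46.9% for Mrpl genes (23 of 49) and 31.0% for Mrps genes (9 of 29). It was 35.4% for genes with a bacterial counterpart and 50% for mitochondrial additions. Among cytosolic ribosomal protein genes it was 19.7% (15 of 76). A share like that of the members was not particular to them. Over the lists of other mitochondrial genes described further below it ran from 15.4% of 13 translation factors to 42.9% of 21 genes of ribosome assembly and rRNA modification.

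**Figure D3:**
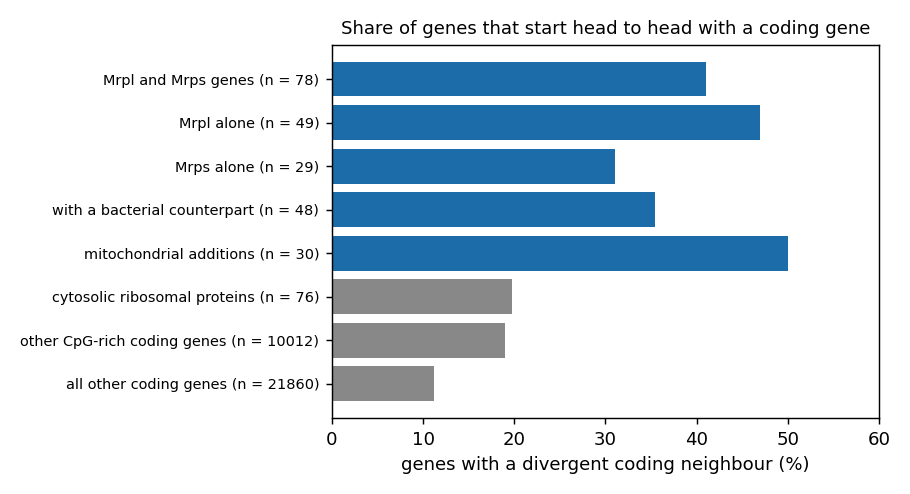
Share of genes with a divergent coding neighbour, in percent of the genes of each group, with the number of genes in brackets; it is a property of the annotation and has no error from the libraries. Members stand at 41.0%, other CpG-rich coding genes at 19% and all other coding genes at 11.2%.

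The neighbours are named here with what they are known to make, picked by hand and without a count of functions. Mrpl46 and Mrps11, of the large and the small subunit, are each other's neighbour, which leaves 31 pairs. Mrpl36 faces Ndufs6 and Mrpl47 faces Ndufb5, both for subunits of respiratory complex I. Mrpl43 faces Twnk, for the helicase of mitochondrial DNA, Mrps12 faces Sars2, for mitochondrial seryl-tRNA synthetase, and Mrps27 faces Ptcd2, for a mitochondrial RNA-binding protein. Mrpl49 faces Fau, for a cytosolic ribosomal protein, Mrpl32 faces Psma2, for a proteasome subunit, and Mrpl18 faces Tcp1, for a subunit of the cytosolic chaperonin. The remaining pairs were Mrpl10 with Lrrc46, Mrpl13 with Mtbp, Mrpl14 with Tmem63b, Mrpl2 with Klc4, Mrpl21 with Ighmbp2, Mrpl27 with Eme1, Mrpl30 with Mitd1, Mrpl37 with Cyb5rl, Mrpl40 with Hira, Mrpl41 with Pnpla7, Mrpl44 with Wdfy1, Mrpl48 with Rab6a, Mrpl50 with Zfp189, Mrpl51 with Ncapd2, Mrpl54 with Apba3, Mrpl57 with Ska3, Mrps18b with Ppp1r10, Mrps18c with Helq, Mrps30 with B430218F22Rik, Mrps34 with Eme2, Mrps5 with Zfp661 and Mrps7 with Gga3. The start that faces the neighbour was an alternative one, not the reference start, in 7 members. A further 4 members faced a noncoding transcript alone, namely Mrpl53, Mrpl55, Mrps21 and Mrps26.

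The starts of a pair lay close together. The median distance was 48.0 bp, from an overlap of 52 bp to a gap of 935 bp, against a median of 87.0 bp for other coding genes with a divergent neighbour. In 30 of the 31 pairs the strongest TSS peak of the member was also that of its neighbour. Mrps5 with Zfp661 was the exception: Zfp661 had 8.00 and 6.51 at another start, and Mrps5 had 3.23 and 1.94. With starts this close, a window of 1 kb takes in the same peaks for both genes, so where a peak covers both starts its signal cannot be assigned to either gene.

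A peak that covered both starts was found for 22 paired members in replicate 1 (68.8%) and for 25 in replicate 2 (78.1%). The mean share was 73.4 ± 6.63% (SD, n = 2 libraries). Other coding genes with a divergent neighbour had 55.7% and 55.0%. These include genes without any TSS peak, while every paired member had one. Their starts also lay more than 200 bp apart in 564 of 2453, against 2 of 32 members. The share was not recomputed for genes alike in both respects. Over the 31 pairs, 20 had such a peak in both libraries, 6 in neither and 5 in 1 of them. The median distance between starts was 46.0 bp in the 20 pairs and 106 bp in the 6.

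Among the pairs of highest signal, Mrps18b with Ppp1r10, for a nuclear regulator of protein phosphatase 1, had its starts 45 bp apart under a peak of 9.19 and 7.09. The stronger peak of that pair, 12.9 and 11.1, lay further from the start of Mrps18b. Mrpl18 with Tcp1 overlapped by 16 bp under a peak of 11.8 and 10.6. Mrpl49 with Fau, 59 bp apart, shared a peak of 12.9 and 7.94. In these pairs the peak over both starts was high in each library. Mrpl48 with Rab6a overlapped by 52 bp under a peak of 9.87 and 8.07.

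The 6 pairs without a peak over both starts in either library ranged from high to low signal. Mrpl2 with Klc4, for a kinesin light chain, had its starts 207 bp apart and a strongest peak of 12.5 and 8.72 that covered no more than 1 of them. Mrpl47 with Ndufb5 had 10.9 and 10.2, with the starts overlapping by 20 bp and the peak beside them. Mrpl41 with Pnpla7, the pair with the longest distance, had 8.07 and 6.04. The others were Mrpl40 with Hira, for a histone chaperone (6.86 and 4.32), Mrpl21 with Ighmbp2, for a helicase (5.51 and 3.46), and Mrpl13 with Mtbp (2.46 and 1.21). In Mrpl10, Mrps12, Mrps30 and Mrps5 a peak covered both starts in replicate 2 alone, and in Mrpl43 in replicate 1 alone.

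The sequence between the starts is shown for some of the pairs of highest signal with a gap of at most 300 bp. Mrpl46 with Mrps11 is added because both of its genes are members. The strand is that of the member named before the other, so that the neighbour is read leftward from the left end and the member rightward from the right end. Capitals mark bases inside a footprint of both libraries, and all are from GRCm38. The stretches are chr17:35916390-35916433 (minus strand) for Mrps18b, chr19:6057786-6057843 (minus) for Mrpl49, chr13:14613166-14613239 (minus) for Mrpl32, chr4:107066869-107066987 (minus) for Mrpl37, chr17:46646023-46646228 (plus) for Mrpl2, and chr7:78783090-78783118 (minus) for Mrpl46.
Mrps18b and Ppp1r10: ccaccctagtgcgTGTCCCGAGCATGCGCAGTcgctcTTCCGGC
Mrpl49 and Fau: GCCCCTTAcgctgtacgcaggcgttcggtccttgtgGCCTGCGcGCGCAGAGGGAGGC
Mrpl32 and Psma2: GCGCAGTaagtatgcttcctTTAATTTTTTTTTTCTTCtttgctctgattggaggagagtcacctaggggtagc
Mrpl37 and Cyb5rl: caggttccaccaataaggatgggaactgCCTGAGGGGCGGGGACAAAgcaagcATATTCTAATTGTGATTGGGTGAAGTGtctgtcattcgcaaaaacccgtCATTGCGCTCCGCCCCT
Mrpl2 and Klc4: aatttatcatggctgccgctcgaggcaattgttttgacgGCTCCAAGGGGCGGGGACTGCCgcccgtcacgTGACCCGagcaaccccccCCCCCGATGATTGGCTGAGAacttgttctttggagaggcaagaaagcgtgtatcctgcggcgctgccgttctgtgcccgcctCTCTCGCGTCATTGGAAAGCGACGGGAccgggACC
Mrpl46 and Mrps11: gcccctcgccggcccgcgttgcctcatgg
Footprints of both libraries covered 59.1% of the bases between Mrps18b and Ppp1r10, 50% between Mrpl49 and Fau, 33.8% between Mrpl32 and Psma2, 52.9% between Mrpl37 and Cyb5rl and 38.3% between Mrpl2 and Klc4. Of the same choice and not shown, Mrps12 with Sars2 had 27.5% and Mrpl51 with Ncapd2 44.4%. No bases were covered in the 29 bp between Mrpl46 and Mrps11, a pair of low signal (3.55 and 2.31). As the only such pair here, it does not set low signal against high. In the stretches of Mrpl37 and Mrpl2 a run of capitals holds GGGCGGGG, a match to the motif of SP and KLF factors.

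Members with a divergent coding neighbour had the higher signal. Their median was 6.84 in replicate 1 and 4.53 in replicate 2 (32 genes), against 4.47 and 3.08 for the other 46 members. Their TSS peaks covered a median of 390 and 410 bp, against 253 and 290 bp, and held 7 and 8 footprints, against 5 and 5.50. Per 100 bp of TSS peak the paired members had no more footprints, with medians of 1.94 and 1.82 against 2.21 and 1.82. The ranges of signal overlapped widely, and the highest member, Mrpl17, had no divergent coding neighbour. The same order was seen among other CpG-rich coding genes, whose median over all, with 0 where there was no peak, was 7.07 and 4.94 with a divergent neighbour and 4.70 and 3.10 without. A CpG-rich start was also more frequent in the paired members, 96.9% against 76.1%, and its part in the difference was not tested.

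**Figure D4:**
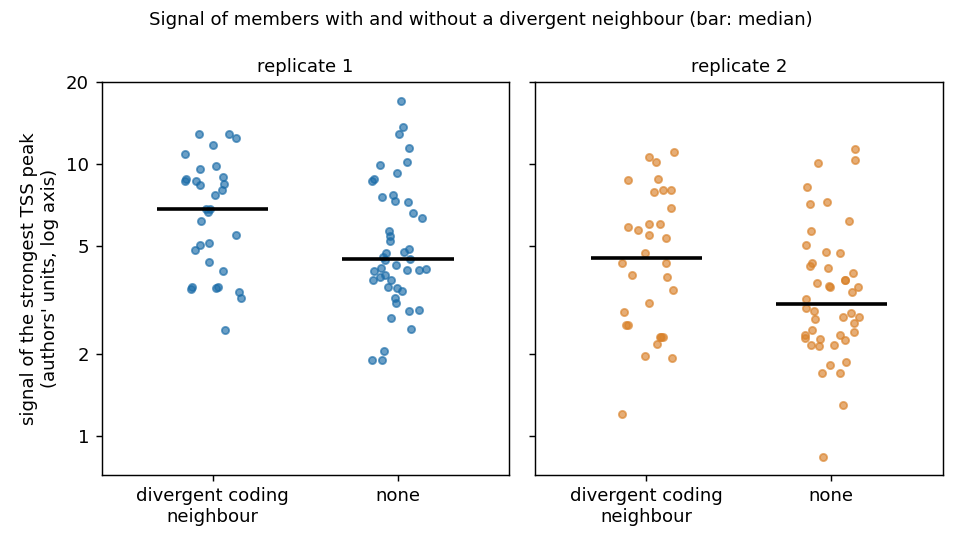
Signal of the strongest TSS peak of members with (32) and without (46) a divergent coding neighbour, on a log axis in the authors' units, 1 point per gene and a bar at the median, with replicate 1 on the left and replicate 2 on the right. Medians are 6.84 against 4.47 and 4.53 against 3.08, and the points of the groups overlap.

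Short motifs were searched without mismatch in 300 bases, from 250 before to 50 after the reference start, on both strands. The ETS motif CCGGAAG was found at 29 members (37.2%), against 11.1% of other coding genes and 18.8% of those with a CpG-rich start. The YY1 motif AAGATGGC was at 11 members (14.1%), against 3.05% and 4.86%. The longer motif of ZNF143 and THAP11 was at 7 (8.97%), against 1.83% and 2.44%. Factors of these kinds are known to act at promoters active in all tissues. A motif of NRF1, ETS or YY1 was found at 38 members (48.7%), against 15.9% and 27.3%. With the motifs of SP and KLF and of NFY, given below, added to this set, it was 55 members (70.5%), against 46.4% and 67.9%. The wider set thus hardly differed from other CpG-rich genes. The NRF1 motif itself was at 4 members (5.13%), against 3.06% and 6.04%. At cytosolic ribosomal protein genes the ETS motif was at 23 of 76 (30.3%) and the YY1 motif at 5 (6.58%).

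**Figure D5:**
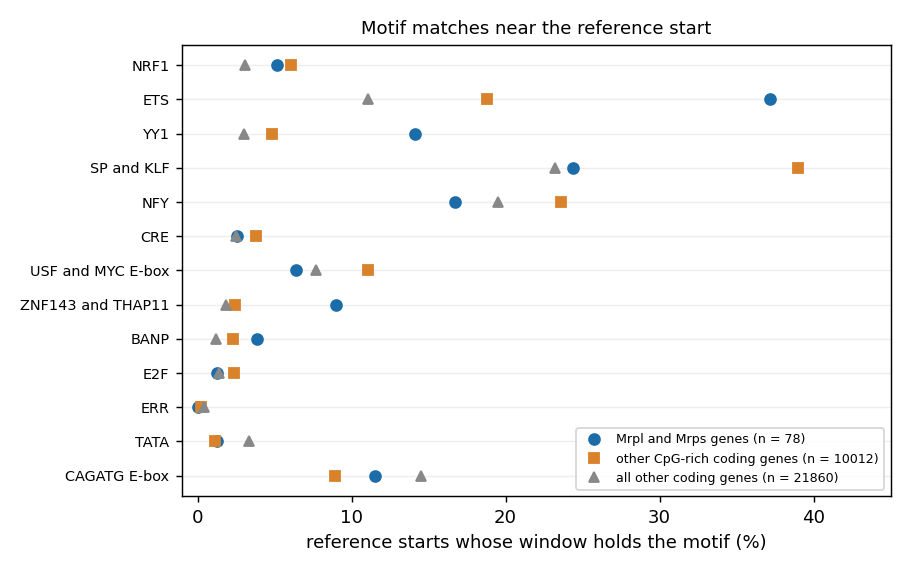
Share of reference starts whose 300 bases hold each motif, in percent, for the 78 members (circles), other CpG-rich coding genes (squares) and all other coding genes (triangles). The ETS motif is at 37.2% of members against 18.8% and 11.1%, and the SP and KLF motif at 24.4% against 39.0% and 23.2%.

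The remaining motifs are given in the same way, as shares of members, of other coding genes and of those with a CpG-rich start. The SP and KLF motif GGGCGGGG was at 19 (24.4%), against 23.2% of other coding genes and 39.0% of those with a CpG-rich start. The NFY motif, CCAAT followed by C or G and then A or G, was at 13 (16.7%), against 19.5% and 23.6%, and CACGTG, bound by USF and MYC, at 5 (6.41%), against 7.72% and 11.1%. CTCGCGAG of BANP was at 3 members (3.85%), against 1.18% and 2.31%. Few or none held TGACGTCA of CREB factors (2), TTTCCCGC of E2F (1), TATAAA (1, in the 50 bases before the start on the gene's strand) or TCAAGGTCA of ERR receptors (0). Each of these was at no more than 2.56% of members and no more than 3.33% of other coding genes. They were also rare among those with a CpG-rich start, so the low counts do not set the members apart. CAGATG, an E-box of neuronal bHLH factors, was at 9 members (11.5%), against 14.5% and 8.95%.

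How often a match lay inside a footprint of both libraries differed by motif. All 5 matches to NRF1, at Mrpl17, Mrpl44, Mrpl45 and Mrpl9, did so, as did 90.3% of those at other coding genes with open starts. Of the SP and KLF matches 24 did (77.4%), against 68.5%. Of the ETS matches 12 did (36.4%), against 30%, and of the YY1 matches 5 (45.5%), against 28.9%. None of the BANP matches did, against 45.6%. The BANP value rests on 3 matches.

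The YY1 matches had a side and a strand. Of the 11, 7 lay within 50 bases after the start and on the strand of the gene, at Mrpl37, Mrpl42, Mrps10, Mrps18a, Mrps18b, Mrps24 and Mrps27. The other 4 lay before the start on the other strand, at Mrpl32, Mrpl36, Mrps11 and Mrps12, and each of those genes has a divergent coding neighbour. Seen from the neighbour, the match was after its start and on its strand in Psma2 (by 35.5 bp), Mrpl46 (61.5 bp) and Sars2 (24.5 bp), whereas for Ndufs6 it was far from the paired start. At other coding genes 39.4% of the matches to this motif were after the start on the strand of the gene, against 63.6% at the members.

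The log2 ratio of replicate 1 to replicate 2 was highest at Mrps25 (1.19), Mrpl13 (1.02), Mrpl15 (1.02) and Mrpl55 (0.93). It was lowest at Mrpl24 (-0.49), Mrps12 (-0.06), Mrpl32 (0.00) and Mrps10 (0.06). Relative to the genome's median of 0.55, Mrpl24 was furthest away, by -1.03, with signals of 2.06 and 2.89, and Mrps25 was 0.64 above it. The SD of the ratio was 0.29 over the members and 0.33 over other coding genes. Signal came in whole steps, of 0.00714 and 0.00632, and a step may be 1 cut. On that reading the median member rests on 712 cuts in replicate 1 and 564 in replicate 2, which gives counting errors of 3.75% and 4.21%. The lowest member rests on 267 and 133 cuts, with errors of 6.12% and 8.67%. They cover counting alone, not the spread between libraries.

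Other nuclear genes of mitochondrial translation had TSS peaks in both libraries throughout. Of other coding genes 58.2% had one in replicate 1 and 57.0% in replicate 2, and of CpG-rich ones 90.9% and 88.9%. The share with a CpG-rich start ran from 76.2% to 92.3% over the lists that follow. Of 6 genes linked to the mitochondrial ribosome under other symbols, such as Dap3, all had a TSS peak, with medians of 4.29 and 3.17. They are not all genes of ribosomal proteins, and they include Mpv17l2 with 7.44 and 8.09. A divergent coding neighbour was found at 2 of them, a share to be read beside the 11.2% of other coding genes and 19% of CpG-rich ones. All 13 translation factors had a TSS peak (5.28 and 2.95), among them Tufm, for the elongation factor Tu, with 8.07 and 6.99. Of the 13, 2 had a divergent coding neighbour. The 19 tRNA synthetases of mitochondria, of which Gars and Kars also serve the cytosol, had 6.27 and 4.10. A divergent coding neighbour was found at 7 of them (36.8%), among them Sars2, which faces the member Mrps12. The 21 genes of ribosome assembly and rRNA modification had 4.84 and 2.96, with 9 divergent (42.9%). The 10 genes of transcription and upkeep of mitochondrial DNA had 6.72 and 4.57, with 3 divergent, among them Twnk, which faces the member Mrpl43. The highest of the 10 was Polg, for the mitochondrial DNA polymerase, with 12.6 and 8.73.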

How the data were processed

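The authors deposited, for each library, 2 peak lists with a signal value per peak, a table of false discovery rates (FDR, a q-value) of the local cut rate, and a footprint list whose value is 0.01 in every line, read as the p-value or FDR threshold of the call. The assembly was mm10 per the file headers, that is the deposited text with the files. Aligner, callers, versions, read numbers and the mapping of CAST reads to the B6-based reference are details not given in the sources used here.

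Every peak of the stricter list held a base with FDR under 0.001. That list was used, and the longer list as an alternative. Positions were compared with GENCODE mouse release 21 in Python 3.11.15 with NumPy 2.4.6. Overlap meant at least 1 bp. Functions were tested on simulated data. The members and lists were chosen with earlier results of these data known. Named genes are the 6 highest and 6 lowest by mean signal, the 4 widest, narrowest and most footprinted, the 4 largest and smallest ratios, and all divergent pairs, with values for the 6 of highest signal and for pairs lacking a peak over both starts.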

Additional observations from a re-analysis of the deposited data

How the results depend on the processing

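The 6 summary values of the members (share with a TSS peak, median signal, median width, share with a shared footprint, share with a divergent coding neighbour and share of pairs with a peak over both starts) were recomputed under 37 combinations of value and setting that keep both libraries. In 32 of them the value moved by no more than the spread between the libraries, or for the divergent share the interval from counting. The share with a TSS peak was 99.4% among the stronger part of the stricter list, where Mrps25 was lost in replicate 2, and 97.4% with the 5-prime end of the gene alone, where Mrpl35 and Mrps24 were lost. The share with a shared footprint was 100% in the longer list, 96.2% with the 5-prime end alone and 98.1% when 0.5 of a footprint had to overlap. The divergent share was 38.5% to 43.6%, while that of other coding genes was 10.3% to 12.4%. Leaving out replicate 1 or replicate 2 gave a median signal of 3.57 to 5.09, a median width of 240 to 260 bp and a share of pairs with a peak over both starts of 68.8% to 78.1%. The use of the reference start alone was added after the data were seen, and gave a median signal of 4.18.

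The number of reads is not known, so no limit from depth can be given for the footprint calls. With 2 libraries, each SD has little precision.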
